A study of Xenopus tropicalis with 4 samples.

Results

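The genes described here encode 10 proteins that fire replication origins: cdc45, the GINS subunits gins1, gins2, gins3 and gins4, the kinase cdc7 and its activator dbf4, and the assembly factors ticrr (treslin), topbp1 and recql4. They were chosen by name, with earlier results of these data known. All 10 were found among 21749 protein-coding genes on the 10 chromosomes of the RefSeq gene table for UCB_Xtro_10.0 (xenTr10). For each gene, called peaks inside it or within 10 kb of it were taken, and a region was counted where peaks of both replicates of a factor overlapped by at least 1 bp. The choice of genes refers to factors that run short at the midblastula stage. The peak lists measure binding of 2 transcription factors and hold no level of these genes' RNA or protein, so that property could not be checked here.

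Origins are licensed when the MCM helicase is loaded onto DNA as an inactive ring. To fire it, the kinase Cdc7 with Dbf4 phosphorylates MCM, and treslin, TopBP1 and RecQL4 help Cdc45 and GINS to join it, which gives the active helicase of Cdc45, MCM and GINS. In Xenopus laevis, the relative in which most of this work was done, TopBP1, RecQ4, treslin and Drf1, another activator of Cdc7, have been reported to become limiting as the rapid early divisions slow. E2F1 is a transcription factor known in many animals for binding genes of DNA replication, and OTX1 is a homeodomain factor known for its role in anterior development.

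Chromatin immunoprecipitation with sequencing was done on Xenopus tropicalis embryos taken whole at the blastula stage 8. In 2 samples, labelled E2F1 Rescue, the embryos had received E2F1 mRNA and an MO (the usual short form of morpholino, an antisense oligonucleotide; its target is not spelled out), and an HA antibody was used. In 2 others, labelled OTX1 Rescue, they had received OTX1 mRNA and an MO, and a Myc-Tag antibody was used. The binding is therefore that of proteins pulled down through an antibody to a tag after injection of mRNA into every sample, and uninjected embryos were not analysed here.

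Peaks were called per sample, which gave 16770 and 20385 E2F1 peaks and 27755 and 29098 OTX1 peaks in replicates 1 and 2. The median summit rested on 16 fragments in each list except replicate 2 of OTX1, where it rested on 15. Of the peaks in a list, 61.9% to 79.4% overlapped a peak of the same factor's other list. The largest q of a peak was 0.0492 and 0.0470 for E2F1 but 0.00999 and 0.00977 for OTX1, so the factors were called at different thresholds. The labels do not say whether replicates came from separate embryo batches, and their spread may be technical.

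E2F1 sat at an end of 9 of the 10 origin firing genes, all but recql4. A region was called at an end when its summit lay within 1 kb of the annotated start or end of the gene, since the gene table gives no strand. Of all protein-coding genes, 34.9% had such a region. Counted inside the gene or within 10 kb, all 10 had a reproducible E2F1 region, against 53.9% of all genes. Of the 13 E2F1 regions counted in this way, 9 were those at the genes' own ends, and 7 genes had 1 region and 3 had 2. For each end region the summit of the replicate with the higher fold percentile was used. These summits lay 3 to 298 bp from the annotated end, with a median of 97 bp. Summits moved by 1 to 204 bp between replicates, and the farthest of any replicate lay 372 bp from the end (ticrr, replicate 1).

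**Figure D1:**
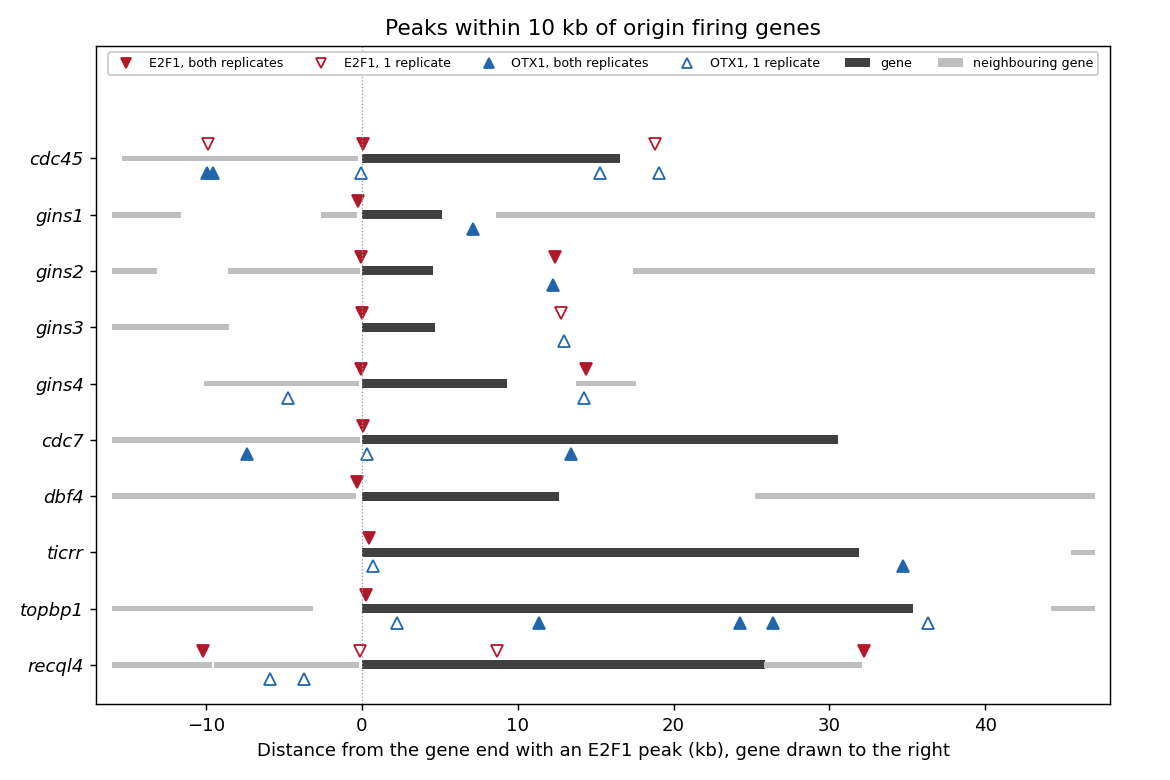
Positions of E2F1 peaks (red, above) and OTX1 peaks (blue, below) along each of the 10 genes, as the distance in kb from the gene end with an E2F1 peak; filled symbols were found in both replicates, open ones in 1. Dark bars are the genes, grey bars are neighbours within 15 kb of them, and bars are cut at the edges of the plot. Filled red symbols sit at the zero line for 9 genes, recql4 has an open one there, and no filled blue symbol sits at the zero line.

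All 5 genes of the Cdc45 and GINS group, whose products complete the active helicase, carried E2F1 at an end, against 34.9% of all genes. The value used for a peak is the authors' fold, which is the signal at the summit over the local background. Whether this background came from the same library or from a control is not stated. At cdc45 (chromosome 1, 154231770 to 154248327) the region spanned 154231532 to 154232130 and its summit lay 103 bp inside the gene. Its fold was 10.3 in replicate 1 and 10.4 in replicate 2, the closest replicate values of the 9 genes. These folds stood at the 94.7th and 93.4th percentile of all peaks in their lists.

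GINS is a ring of 4 related subunits, and its genes carried E2F1 with unequal folds. At gins4 (Sld5; chromosome 3, 130217820 to 130227148), the fold was 8.44 and 12.1 in replicates 1 and 2, with a summit 38 bp from the gene's lower end. At gins1 (Psf1; chromosome 5, 38932998 to 38938167) it was 8.43 and 8.85. The gins1 region spanned 38938041 to 38938777. Its summit, that of replicate 2, lay 232 bp beyond gins1 and 95 bp from the end of uqcc2, so nearer to the neighbour. The replicate 1 summit lay 136 bp beyond gins1 in a gap of 327 bp, so it was nearer to gins1. Gins4 and gins1 were both above the 87th percentile in each list.

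The remaining GINS genes had weaker regions. At gins2 (Psf2; chromosome 4, 64845538 to 64850088) the fold was 4.77 and 7.24, or the 32.2nd and 77.1st percentile, and the summits of the replicates lay 204 bp apart. At gins3 (Psf3; chromosome 4, 75819427 to 75824143) it was 5.17 and 5.72, the lowest mean of the 9 genes. The median fold of all peaks was 5.44 and 5.37 in the E2F1 lists, so gins3 lay just below the median in replicate 1 and above it in replicate 2, and gins2 did the same with a wider gap. Dbf4 and ticrr, described below, also lay below the median in replicate 1 (5.29 and 5.26) and above it in replicate 2.

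**Figure D2:**
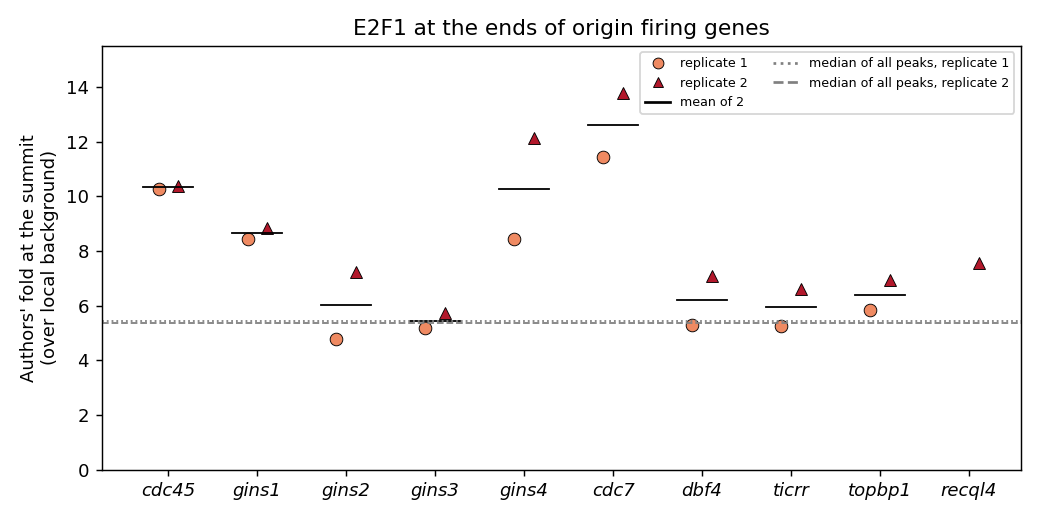
The authors' fold of the E2F1 peak at the end of each gene, with replicate 1 as circles, replicate 2 as triangles and the mean of both as a bar; grey lines give the median fold of all peaks of each list. Cdc45, gins1, gins4 and cdc7 stand above 8 in both replicates, and recql4 has a value of 7.56 in replicate 2 alone.

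The kinase gene cdc7 had the highest E2F1 fold of the 10 genes. At cdc7 (chromosome 4, 104899163 to 104929740) the region spanned 104929305 to 104930051, with folds of 11.4 and 13.8 at the 97.0th and 98.6th percentile. By the mean of the percentiles it ranked 320th among the 7596 genes with E2F1 at an end. By the same measure cdc45 ranked 833rd, gins4 1060th and gins1 1653rd. Topbp1 ranked 3834th, dbf4 4362nd, ticrr 4626th, gins2 4920th and gins3 5349th, each below the middle of the 7596. Dbf4, the gene of the activator of Cdc7 (chromosome 6, 29275447 to 29288133), had folds of 5.29 and 7.09, with a summit 3 bp from its higher end. The dbf4 region was the widest, 1419 bp, against a smallest width of 413 bp at gins3. Both DDK genes thus had E2F1 at the end, and neither replicate of dbf4 reached the lower value of cdc7.

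Of the assembly factors, ticrr and topbp1 had E2F1 at an end and recql4 did not in both replicates. At ticrr (chromosome 3, 109575987 to 109607902), the gene of treslin, the fold was 5.26 and 6.60, with a summit 298 bp inside the gene. At topbp1 (chromosome 6, 52587506 to 52622875) it was 5.86 and 6.94. The topbp1 summits lay 273 and 272 bp inside the gene, so the replicates placed it within 1 bp of each other.

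Recql4, a helicase of the RecQ family (chromosome 2, 101479 to 127369), had an E2F1 peak at its end in replicate 2 alone. It spanned 127319 to 127671, with a fold of 7.56 at the 79.8th percentile and a −log10 q of 10.5. Its summit lay 91 bp beyond recql4 and 54 bp from the end of vps28. This peak rested on 16 fragments (exact Poisson 95% interval 9.15 to 26.0, which covers counting error only) over a local background of 1.25, which equals the lowest of that list. The reproducible regions that counted for recql4 lay at 94812 to 95440, where the summit was 305 bp from an end of znf630, and at 137110 to 137923, where it was inside ubash3a and 810 bp from its end. With each region given only to the nearest gene, recql4 had none. Gins1 lost its region to uqcc2 by the same setting, which left 8 genes, against 41.6% of all genes. This setting used 1 summit per region, that of the replicate with the higher fold percentile. The replicate 1 summit of gins1 was nearer to gins1, so its loss depends on the replicate. At gins2, which kept its region, the replicate 1 summit lay 210 bp from the gene and inside cfap157.

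The folds of cdc7, cdc45, gins4 and gins1 were above those of the other 5 genes within each list. In replicate 1 the lowest of these 4 was 8.43 (gins1) and the highest of the others was 5.86 (topbp1). In replicate 2 the corresponding values were 8.85 (gins1) and 7.24 (gins2). This grouping was made after the values were seen and was not tested. Among these 4 the order is only partly resolved. Within each list cdc7 stood highest. Cdc45 was above gins4 in replicate 1 (10.3 against 8.44) and below it in replicate 2 (10.4 against 12.1). Gins1 nearly equalled gins4 in replicate 1 (8.43 against 8.44). Replicate 2 of gins4 exceeded replicate 1 of cdc7, but these folds come from different lists. Both values of cdc7 exceeded both of cdc45, and both of cdc45 exceeded both of gins1. The fragment counts given below do not separate cdc45, gins4 and gins1. Taken across both lists, the values of dbf4, topbp1, gins2, ticrr and gins3 overlapped with one another. The exception was topbp1, whose lower value of 5.86 was above both values of gins3.

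All 9 end regions had a higher fold in replicate 2 than in replicate 1. This held for 61.3% of all 13216 E2F1 regions, with a median ratio of 1.06.

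The fragments behind these folds numbered 14 to 96 at the summit. At cdc7 there were 68 (exact Poisson 95% interval 52.8 to 86.2) and 96 (77.8 to 117), and neither interval overlapped that of another gene in the same list. At cdc45 there were 36 (25.2 to 49.8) and 38 (26.9 to 52.2), and at gins1 28 (18.6 to 40.5) and 30 (20.2 to 42.8). At gins4 there were 26 (17.0 to 38.1) and 43 (31.1 to 57.9). The intervals of cdc45, gins1 and gins4 overlap in each list, so no order of these genes is drawn from the counts. Overlap of intervals is no test of a difference, and the counts are not set over background as the folds are. At gins2 there were 14 (7.65 to 23.5) and 21 (13.0 to 32.1), and at gins3 14 (7.65 to 23.5) and 18 (10.7 to 28.4). The intervals of gins2, gins3, ticrr and topbp1 overlap widely, so no order of these is drawn from the counts at this depth either.

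Fold and fragment number did not rank the genes alike. Dbf4 had 26 and 41 fragments, close to gins4 with 26 and 43, but its fold was lower and its local background was 4.10 and 4.93 against 2.2 and 2.63. Cdc7 had the highest local background too, 5.04 and 6.04, while the list medians were 2.06 and 2.14. The part that this background has in the folds was not tested. Without peaks whose background exceeded 2 times the median of their list, cdc7 and dbf4 lost their regions. The other 7 genes kept E2F1 at an end, against 28.2% of all genes. Cdc7 exceeded the limit in both lists (2.44 and 2.82 times the median). Dbf4 exceeded it in replicate 2 alone (2.30) and lay just under it in replicate 1 (1.99).

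**Figure D3:**
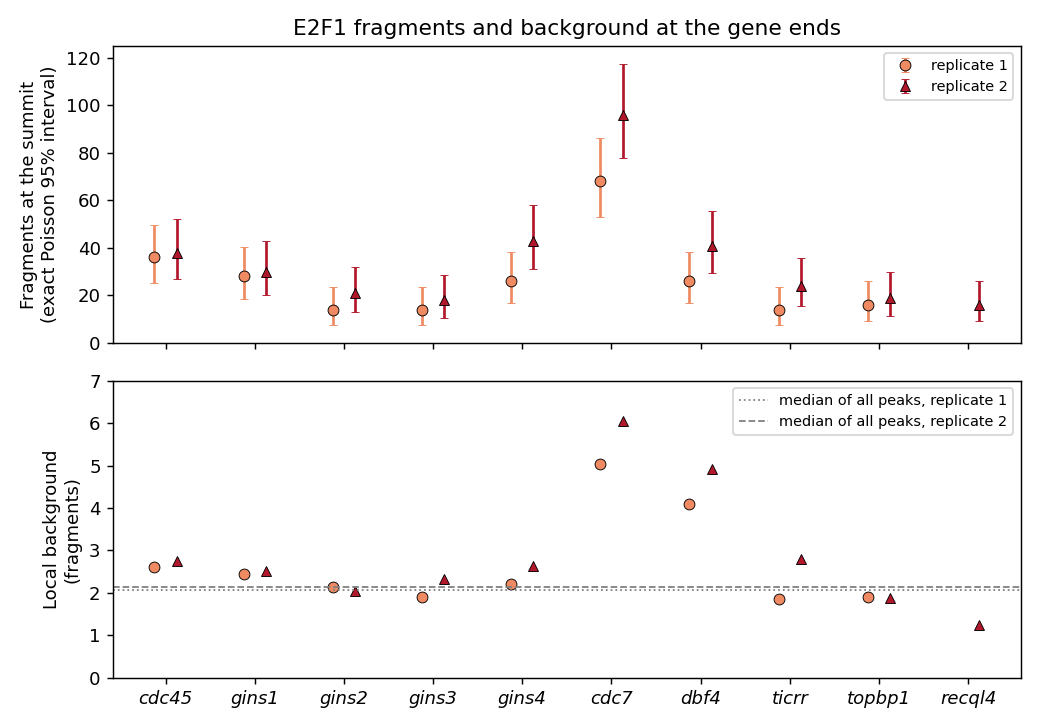
Fragments at the summit of the E2F1 peak at each gene's end with exact Poisson 95% intervals (above) and the local background in fragments (below), by replicate; grey lines give the median background of all peaks of each list. Cdc7 stands highest in fragments, and cdc7 and dbf4 stand highest in background.

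Most of these genes have a close neighbour on the side where E2F1 was found. An end of another protein-coding gene lay within 1 kb of an end of 7 of the 10 genes, against 19.1% of all genes. The share was 28.9% of the 7596 genes with E2F1 at an end. It was 40.4% of the 52 other replication genes described below, so a close neighbour is not particular to origin firing genes. Recql4 was among the 7, lying next to vps28 and overlapping znf630. For the other 6 the gap between the genes was 90 bp for cdc7 and hfm1 and 109 bp for gins2 and cfap157. It was 200 bp for gins4 and chmp7, 217 bp for cdc45 and ufd1, 327 bp for gins1 and uqcc2, and 330 bp for dbf4 and slc25a40. Of these neighbours, hfm1 encodes a helicase of meiotic recombination, and chmp7 an ESCRT protein. At each of these 6 genes the E2F1 summit lay within 327 bp of the neighbour's end, so the region cannot be given to 1 gene of the couple.

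The other 3 genes with E2F1 at an end stood apart from their neighbours, by 3109 bp for topbp1, 8500 bp for gins3 and 13543 bp for ticrr. Their mean fold percentiles were 66.7, 49.4 and 58.1, all below those of cdc7, cdc45, gins4 and gins1 but not below all genes with a close neighbour, since gins2 stood at 54.7 and dbf4 at 61.1. Over all genes, E2F1 lay at an end of 52.7% of the 4161 with a close neighbour and of 30.7% of the rest. The median percentile of their regions was 69.7 and 66.0.

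OTX1 had reproducible regions within 10 kb of 6 of the 10 genes and at an end of none. Over all genes these shares were 41.9% and 7.18%, so an OTX1 region within 10 kb is common among genes in general. A region at an end is uncommon in general, so its absence here is not read as particular to these 10 genes. There were 10 such OTX1 regions, with folds of 4.03 to 8.27 and 11 to 30 fragments at the summit. Gins3, gins4, dbf4 and recql4 had none, and dbf4 had no OTX1 peak in either list.

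Of the OTX1 regions, 4 had their summit inside the gene itself. Topbp1 held 3 of them, with folds of 7.09 and 7.96 (52598676 to 52599111), 4.12 and 4.45 (52611616 to 52611890), and 4.90 and 4.82 (52613715 to 52614005). The first of these was near the 90th percentile in both lists and 11314 bp from the nearer end of the gene. Cdc7 held the other at 104916117 to 104916496, with folds of 4.37 and 5.74.

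The other 6 OTX1 regions lay outside the genes, several of them in a neighbour. Both regions counted for cdc45 lay inside ufd1, at 154221767 to 154221953 (folds 5.74 and 8.27) and 154222076 to 154222342 (6.43 and 6.56). A further region counted for cdc7 lay inside hfm1 (4.23 and 6.73). The region counted for ticrr was 2753 bp beyond it (6.54 and 5.10), and that counted for gins1 was 1948 bp from it and 1492 bp from ninl (4.03 and 4.09). With each region given only to the nearest gene, OTX1 was left at 3 genes (cdc7, ticrr and topbp1), against 33.9% of all genes. Among peaks whose −log10 q was 5 or more, and with lists of equal size, it was left at 3 as well (cdc45, gins2 and topbp1), against 32.2% and 29.8% of all genes.

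The window of 10 kb took in an OTX1 region 9817 bp from cdc45 and an E2F1 region 9741 bp from recql4. The nearest regions left out lay 12868 bp (E2F1, gins2) and 16822 bp (OTX1, gins4) from the genes.

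E2F1 and OTX1 regions coincided once. Beyond gins2, an E2F1 region at 64857607 to 64858218 (folds 6.85 and 5.50) overlapped an OTX1 region at 64857511 to 64858073 (5.20 and 6.62). Its summit was 7713 bp from gins2 and 5113 bp from gse1, and the nearest-gene setting gave it to gse1. Of all genes, 12.4% had such an overlap within 10 kb. With peaks of replicate 1 alone 2 genes had one, against 19.1% of all genes, and with replicate 2 alone 5 did, against 20.5%. The overlap is lost with 50% reciprocal overlap between replicates.

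An OTX1 peak of either replicate lay at an end of 4 genes, against 16.8% of all genes. That share includes genes with peaks in both lists, while at these 4 genes each peak was seen in a single replicate. At cdc45 a replicate 1 peak had its summit 2 bp from the end (fold 4.11), and at cdc7 a replicate 2 peak had its summit 335 bp from it (4.72). At ticrr a replicate 2 peak lay 715 bp inside the gene (4.17). These 3 overlapped the E2F1 region at the same end, while the replicate 1 peak at topbp1 lay 837 bp beyond the opposite end (4.99). The peaks rested on 9 to 17 fragments each. Each was missed in the other list, so none counts as reproducible. How many of all genes have a single-list OTX1 peak over an E2F1 region at an end was not counted. The 3 overlaps therefore cannot be called frequent or rare.

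Away from the gene ends, peaks of both factors also met near cdc45, gins3 and gins4, with at least 1 of the factors seen in a single list. The share of all genes with such a mixed overlap was not counted. These cases are therefore described only and cannot be called frequent or rare. Beyond cdc45, a replicate 1 peak of E2F1 (fold 3.80) overlapped a replicate 2 peak of OTX1 (3.99). Inside ufd1, a replicate 2 peak of E2F1 (4.86) overlapped the reproducible OTX1 region at 154221767 to 154221953. Beyond gins3, a replicate 2 peak of E2F1 (fold 4.16) overlapped a replicate 1 peak of OTX1 (4.02), each resting on 11 fragments. At ppp1r3c.2, next to gins4, a reproducible E2F1 region (4.20 and 4.49) overlapped a replicate 2 peak of OTX1 (5.05).

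Counted by list, E2F1 peaks lay within 10 kb of 10 and 10 genes and OTX1 peaks of 9 and 8, against 58.9% and 64.4% of all genes for E2F1 and 55.2% and 54.6% for OTX1. The means were 10 and 8.50 ± 0.707 (SD, n = 2), a difference of 1.5 genes with a two-sided exact permutation p = 0.33, the smallest that 2 against 2 lists allow. At gene ends the counts were 9 and 10 for E2F1 and 2 and 2 for OTX1, a difference of 7.5 genes with the same exact permutation p = 0.33. Unlike the comparison within 10 kb, this one at ends was not planned. The lists of the 2 factors do not overlap in either count. Their shares of all genes do not overlap either, so this separation is not particular to the 10 genes. With peaks of high background left out, the difference within 10 kb was 0, and the cause was not tested. Over all genes, E2F1 peaks lay at an end of 37.4% and 41.5% and OTX1 peaks of 12.6% and 11.8%. Antibody, injected mRNA and calling threshold differed along with the factor and cannot be told apart from it.

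E2F1 lay at the ends of a like share of other replication genes, and the median fold percentile of its regions there was higher. Of these other replication genes, also chosen with earlier results known, 52 were found in the gene table. An E2F1 region lay at an end of 47 (90.4%), against 34.9% of all genes. For the 47, the median fold percentile was 90.3, against 66.7 for the 9 origin firing genes. For all 7596 genes with E2F1 at an end it was 67.0. These medians describe the lists and were not tested against each other. The part that local background has in the difference was not tested. Without peaks of high background, 26 of the 52 kept a region at an end, against 28.2% of all genes.

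Among 13 further cofactors of firing, 12 had E2F1 at an end, against 34.9% of all genes. By fold percentile, cdk2, the S-phase kinase (12.2 and 12.0), and rif1, which directs a phosphatase against DDK (11.2 and 12.4), stood highest. Donson (10.5 and 10.9) and mtbp, the partner of treslin (9.97 and 10.6), followed, both factors of helicase assembly. Mtbp thus had a higher fold in each list than ticrr at 5.26 and 6.60. Wdhd1, which links the helicase to the polymerase alpha, had 9.13 and 10.3. Dbf4b, the gene of Drf1, had 6.54 and 8.08, above its relative dbf4 in each list.

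The rest of the cofactors had folds below those of wdhd1 in each list. Mcm10 had 8.09 and 8.32, and ccna2, a cyclin, 8.26 and 8.23, both above dbf4b in each list. The checkpoint mediator clspn had 6.71 and 7.91, tipin 6.69 and 6.35, and the cyclins ccne1 and ccne2 6.12 and 8.57, and 5.36 and 5.88. Timeless, the partner of tipin, had no region at an end but had one within 10 kb.

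Of 17 licensing genes, 14 (82.4%) had E2F1 at an end, and of 22 genes of the replication fork, 21 (95.5%) did. The share of all genes was 34.9%. In mean fold percentile the licensing genes were led by cdc6 (17.0 and 19.8), mcm6.2 (14.8 and 17.9) and mcmbp (13.3 and 13.8). The fork genes were led by pold3 (13.5 and 13.6), pole3 (13.1 and 14.0) and rfc1 (11.8 and 14.6). Pold1, named after its values were seen, came next by percentile with 11.2 and 15.8, the latter the highest replicate 2 fold of the fork genes. The 5 genes without a region at an end were orc5, mcm3, mcm6, timeless and prim2. OTX1 lay at an end of 3 of the 52 (5.77%), against 7.18% of all genes. These were orc5, which had no E2F1 region within 10 kb, and mcm10 and ccne1, which carried both factors.

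**Figure D4:**
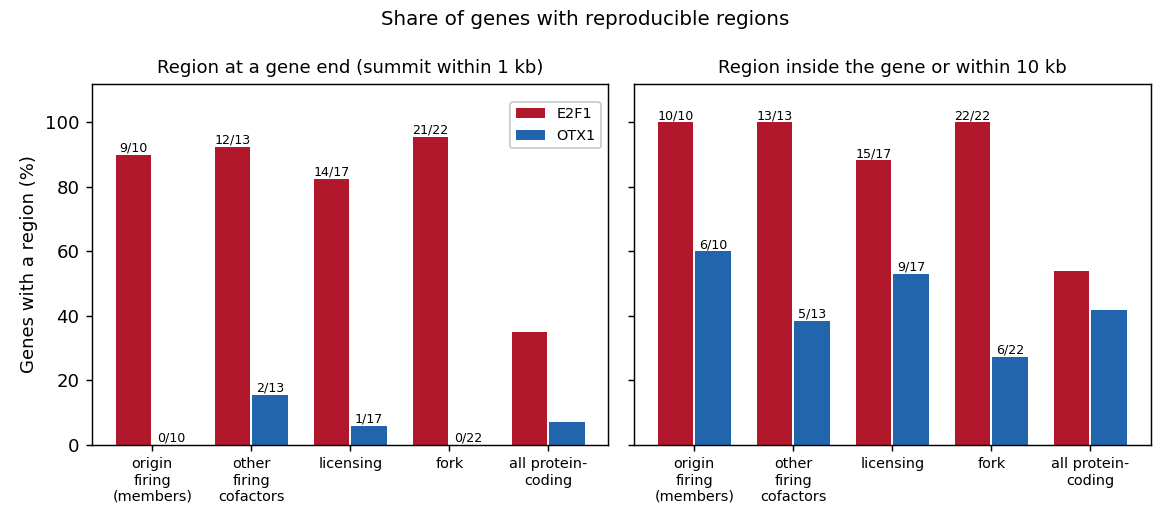
Share of genes (%) with a reproducible E2F1 (red) or OTX1 (blue) region at a gene end (left) or inside the gene or within 10 kb (right), for the 10 origin firing genes, 3 other lists of replication genes and all 21749 protein-coding genes; the numbers above bars are genes with a region of genes in the list. E2F1 stands at 82.4% to 95.5% of each list at gene ends against 34.9% of all genes, and OTX1 at 0 of 10 origin firing genes against 7.18%.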

How the data were processed

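Narrow peak lists of 4 samples (2 per factor), called per sample by the authors, were used as deposited. Tools in the submitters' processing notes, which give them no role, are MACS2 2.2.7.1, Bowtie2 2.4.5, deepTools and fastp. Whether a control library served in calling peaks is not stated there. The build name xenTr10 stands in the OTX1 peak names. The deposited score is 10 times the −log10 q, cut to a whole number, in 100% of peaks. The deposited fold is a ratio to local background, and the deposited p-values and q-values, given as −log10, refer to the summit. These values are the authors' own and were used within lists.

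Fragments and background per summit were solved from the fold, taken as (fragments + 1) / (background + 1), and a Poisson p, and a whole number was found in 100% of peaks with a misfit of at most 4.56e-05 in −log10 p. Peaks of both replicates sharing at least 1 bp were joined, with the summit of higher fold percentile. Distances used RefSeq gene spans without strand, exons or UTRs. Of 53 other replication genes listed, 52 were found. The scripts (Python 3.11.15, numpy 2.4.6, pandas 2.3.3, scipy 1.17.1) were tested on simulated data. The planned letter search in promoters was not run, as no sequence was used here. The genes and lists, and the rule naming all 10 members, all cofactors and the 3 genes of highest mean fold percentile in the other lists, were chosen with earlier results of these data known. Alternatives were another overlap, a stricter q, equal lists, a background filter, single replicates and other distances.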

Additional observations from a re-analysis of the deposited data

How the results depend on the processing

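The count of origin firing genes with E2F1 at an end stayed between 7 (without peaks in a high local background) and 10 (replicate 2 alone). Over all genes, these settings gave 28.2% and 41.5%. Within 10 kb the count stayed between 8 and 10. It was 8 without high-background peaks and with the nearest gene only, against 46.5% and 41.6% of all genes. OTX1 within 10 kb fell to 3 at a −log10 q of at least 5, to 3 with lists of equal size and to 3 with the nearest gene only. The share of all genes fell as well, from 41.9% to 32.2%, 29.8% and 33.9%. OTX1 at an end went from 0 to 1 with summits within 2 kb, and to 2 and 2 without replicate 1 or replicate 2. The share of all genes rose as well, from 7.18% to 11.6%, and to 11.8% and 12.6%. Genes with overlapping regions went from 1 to 0 with 50% reciprocal overlap, within 5 kb and with the nearest gene only. They rose to 5 without replicate 1 and to 2 without replicate 2. Of all genes, 12.4% had an overlap in the main setting, 9.49% with reciprocal overlap and 9.32% with the nearest gene only. The share was 20.5% without replicate 1 and 19.1% without replicate 2, and that within 5 kb is not given here. Of the 52 other replication genes, 26 had E2F1 at an end without peaks in a high local background, against 28.2% of all genes. OTX1 lay at an end of 8 with summits within 2 kb and of 6 and 6 without a replicate, against 3. The shares of all genes with OTX1 at an end, given above, rose with these settings too. The difference in genes per list within 10 kb went from 1.5 to 0 without peaks in a high local background (exact permutation p = 1). The cause of these changes was not tested. With the replicate number as a block, which the labels give no reason to take as a pairing, the difference was 1.5 (exact sign-flip p = 0.5, the smallest possible). Ranked anew among peaks with a −log10 q of at least 5, the mean fold percentiles of the 9 genes with E2F1 at an end changed by -21.5 (gins3) to -0.981 points, and with lists of equal size by -4.70 to -0.148 points. Summits of 14 to 24 fragments limit the order of gins2, gins3, ticrr and topbp1.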
